A study of Bos taurus with 20 samples.

Results

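LEP, FABP4 and ADIPOQ are genes by which fat cells are recognised, and 2 of the 3 were measured here in the skeletal muscle of calves fed at 2 levels. The members were chosen by Ensembl gene identifier: ENSBTAG00000014911 for LEP, ENSBTAG00000037526 for FABP4 and ENSBTAG00000019813 for ADIPOQ. The first 2 were found among the 27607 genes listed, and ADIPOQ was not analysed here. The deposited table carries identifiers without symbols, so the names LEP and FABP4 rest on this pairing of identifiers with symbols. FABP4 was abundant enough to be among the 12057 genes tested, and LEP was not.

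The animals were crossbred Angus by Holstein-Friesian heifer calves, fed differently from 2 weeks of age and sampled at 21 weeks. The 10 High plane calves drank 10 litres per day holding 1.5 kg of milk replacer, with concentrates freely available, for 8 weeks. For the next 11 weeks their concentrates and hay were unrestricted. The 10 Moderate plane calves drank 4 litres holding 0.5 kg of milk replacer and ate 1 kg of concentrates daily; weaned calves stayed at 1 kg of concentrates, with hay. The planned gains were 1.2 kg per day on the High plane and 0.5 kg per day on the Moderate plane. Each calf gave 1 library of polyadenylated RNA, so the calf is the replicate. Which muscle was sampled is not given in the sources used here.

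Skeletal muscle holds fat cells between its fibre bundles, and their triglyceride is the marbling fat of beef. FABP4 encodes the fatty acid binding protein of fat cells, which carries fatty acids through the cytoplasm; endothelial cells of small vessels and macrophages also make it. LEP encodes leptin, the hormone by which fat tissue signals energy stores and which rises as fat cells fill. ADIPOQ encodes adiponectin, another hormone secreted by fat cells. In a piece of muscle, fewer cells of a type and less RNA per cell cannot be told apart. The RefSeq gene table used here, for the assembly ARS-UCD2.0, lists both LEP and FABP4 as protein-coding genes. It places FABP4 between FABP9 and FABP12, which are members of its own family. Whether the counting could split reads between such relatives is not given in the sources used here.

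Libraries held 12280289 to 14123113 reads assigned to genes. Levels are given as scaled CPM, which are reads per 1000000 reads of a library size that was adjusted by TMM (trimmed mean of M values). On this scale 1 read was worth 0.0673 to 0.111, and a gene without a read may have reached 0.202 to 0.333 (3 reads, counting error only). In an earlier analysis of these data 2 libraries were singled out as unlike the rest, so results are also given without them. They were replicate 2 of the High plane and replicate 4 of the Moderate plane, with TMM factors of 0.668 and 0.899. The factor does not set the second of these apart, since High plane replicates 4 and 7 had 0.846 and 0.867. The labelled tissue was not checked against markers of muscle fibres or of other cell types, because no table used here pairs identifiers with symbols. For the same reason the genes that act with FABP4 and LEP in fat storage and hormone signalling were not analysed here by name.

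FABP4 was detected in every calf and varied widely. Among High plane calves the lowest had 0.555 scaled CPM, the median was 4.04 and the highest had 49.3. These levels rested on 5 to 732 reads per library. Among Moderate plane calves the lowest had 0.158 scaled CPM, the median was 1.12 and the highest had 5.80, from 2 to 85 reads. Replicates 5, 3 and 7 of the High plane group stood above all other calves, at 49.3, 28.0 and 23.9 scaled CPM. The fourth High plane calf followed at 5.63, below the highest Moderate plane calf, replicate 7, at 5.80. The groups therefore overlapped, with 3 of the 10 High plane calves above every Moderate plane calf and 8 of them above the second highest, at 2.00. Replicates 5, 3 and 7 held 84.3% of all FABP4 reads of the High plane group. At the low end, 2 calves fed at the High plane had less than the Moderate plane median. The lowest calf of each group was the unlike library, High plane replicate 2 with 5 reads (exact 95% Poisson interval 1.62 to 11.7) and Moderate plane replicate 4 with 2 reads (0.242 to 7.22).

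**Figure D1:**
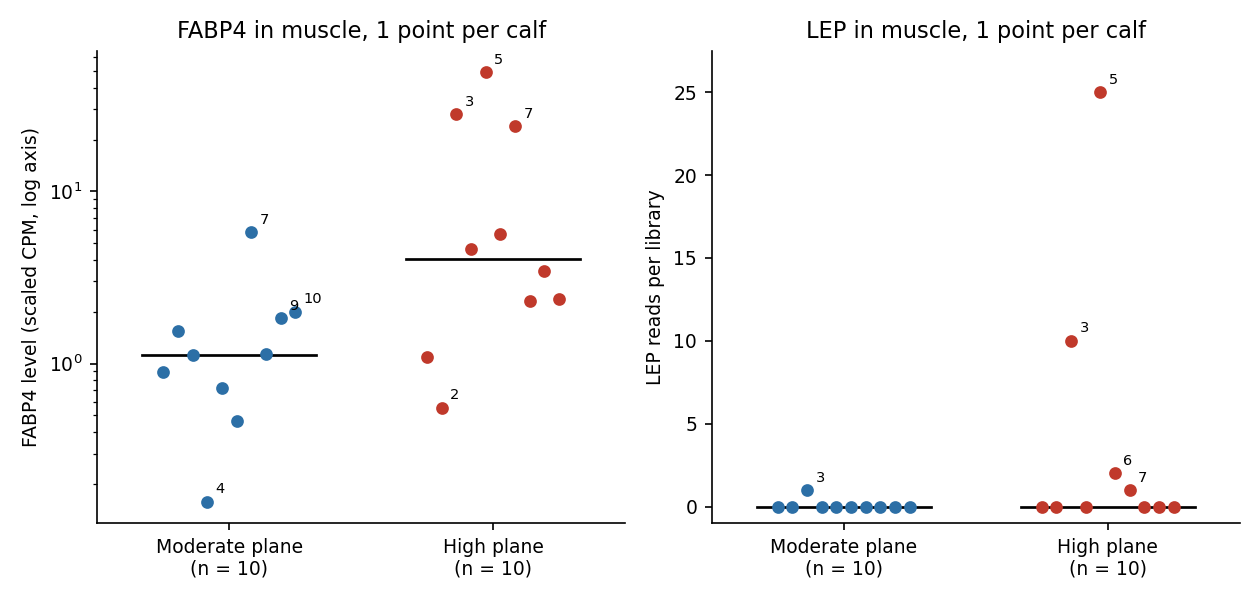
FABP4 level in scaled CPM on a log axis (left) and LEP reads per library (right), with 1 point per calf, the group median as a black line and replicate numbers beside the outer FABP4 values and every LEP value above 0. High plane replicates 5, 3 and 7 lie between 23.9 and 49.3 scaled CPM of FABP4, above every Moderate plane calf, and High plane replicates 5 and 3 hold 25 and 10 LEP reads.

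The comparison of the feeding groups asks whether this fat cell gene was higher in the muscle of well fed calves. FABP4 averaged 12.1 ± 16.3 scaled CPM on the High plane and 1.57 ± 1.60 on the Moderate plane (SD over 10 calves each). The ratio of the group means was 7.73 and that of the medians 3.60. The difference was 1.59 ± 0.52 on the log2(scaled CPM + 1) scale (SE, 95% interval 0.51 to 2.66), which is 3.0-fold on that scale and understates the fold of a gene at this level. By limma, FABP4 had an unadjusted p of 0.00557 and a Benjamini-Hochberg adjusted p of 0.112 over all genes tested, so it did not pass the threshold of 0.05. Of the tested genes, 595 had an unadjusted p as small or smaller, FABP4 included, and 258 (2.14%) were called in either direction. With 138 genes called higher on the High plane, the share in that direction was 1.14%.

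The call depended on the test. On the recovered reads, edgeR's quasi-likelihood test put FABP4 at 2.94 on the log2 scale, a 7.70-fold difference, with an adjusted p of 0.0242. In that test 1.39% of genes were called higher on the High plane. DESeq2's Wald test gave 2.95 on the log2 scale with an adjusted p of 0.00242. A fit with voom and sample weights gave 2.33 on the log2 scale with an adjusted p of 0.112. Permuting the group labels for this gene alone gave p = 0.0116 (100000 resamples, two-sided, not adjusted for other genes).

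Single calves also decided the call. Without High plane replicate 2, the lowest of its group, the limma difference was 1.82 on the log2 scale with an adjusted p of 0.0458. The other 19 calves left out in turn gave limma adjusted p-values up to 0.194. Without both unlike libraries the difference was 1.71 on the log2 scale with a limma adjusted p of 0.0657, and the edgeR value was 2.93 with an adjusted p of 0.0192. In the edgeR fit the adjusted p rose to 0.0629 without High plane replicate 5, the highest calf, and the difference was 2.33. All of these fits placed FABP4 higher on the High plane.

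**Figure D2:**
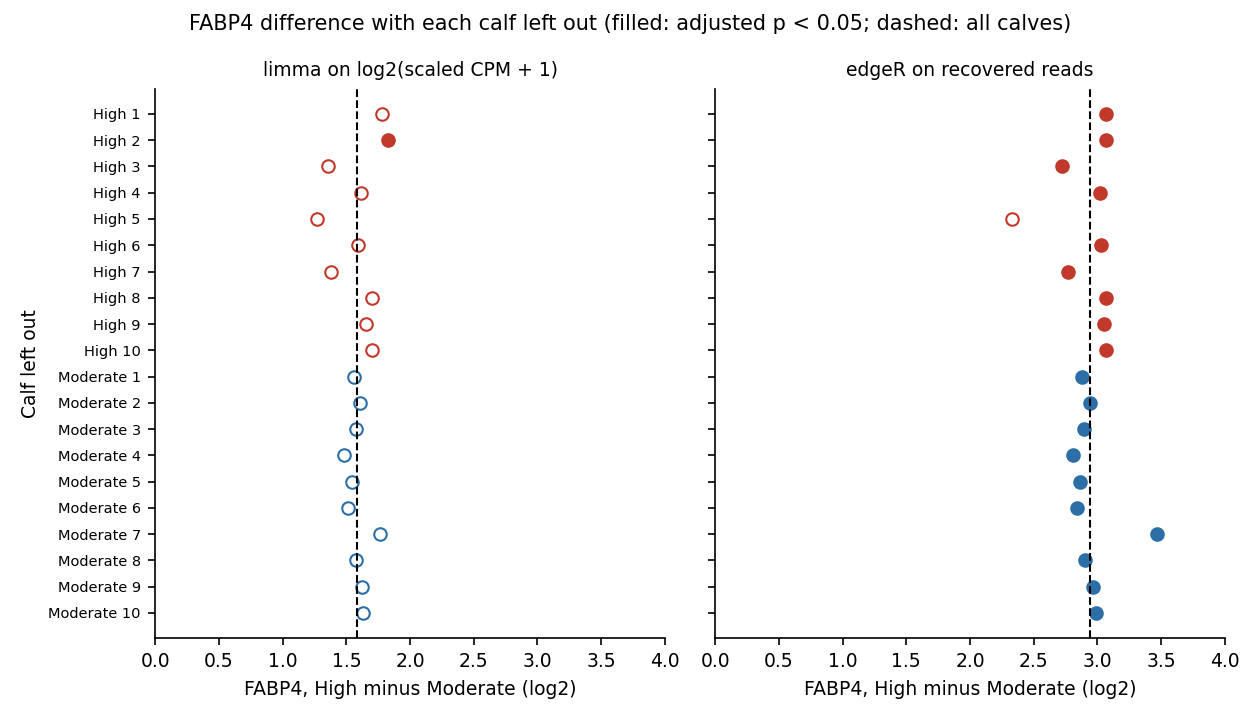
FABP4 difference, High minus Moderate on the log2 scale, with each calf named on the vertical axis left out, for the limma fit (left) and the edgeR fit to the recovered reads (right). Filled points passed an adjusted p of 0.05, open points did not, and dashed lines mark the values with all calves; 1 of 20 limma points is filled and 1 of 20 edgeR points is open.

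The level of FABP4 moved with measures of the library to a degree that did not pass the test. Within groups, the Pearson correlation of its log2 level with the TMM factor was 0.46 (n = 20, permutation p = 0.101, adjusted over 3 relations p = 0.229; Spearman rho 0.39, p = 0.137, adjusted p = 0.223). Without High plane replicates 2 and 4, the calves farthest from the median TMM factor, r was 0.27 (permutation p = 0.359). With the percentage of reads taken by the 20 top genes r was -0.41 (permutation p = 0.153, adjusted p = 0.229; rho -0.37, p = 0.149, adjusted p = 0.223), and -0.50 without High plane replicates 2 and 7 (permutation p = 0.0419). With the library total r was -0.26 (permutation p = 0.271, adjusted p = 0.271; rho -0.29, p = 0.244, adjusted p = 0.244), and 0.07 without replicate 3 of the High plane and replicate 4 of the Moderate plane (permutation p = 0.807). When that percentage entered the limma fit as a covariate, the FABP4 difference was 1.71 on the log2 scale with an adjusted p of 0.0491. What part these measures have in the FABP4 result was not tested further.

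The spread between calves was wide for FABP4 in both groups. The SD of its log2(scaled CPM + 1) level was 1.71 on the High plane and 0.70 on the Moderate plane. Over the genes tested the median SD was 0.30 and 0.31, and only 9 genes varied more than FABP4 in the High plane group, against 517 in the Moderate plane group. The SD was 2.44 times as large on the High plane. A permutation test on the deviations from the group medians gave p = 0.0436 for FABP4. After adjustment over the tests of FABP4 and LEP it was p = 0.0858, so the difference in spread did not pass. That adjusted value is the p of the LEP test, which measured the level of LEP and not its spread, as described below. From the lowest to the highest calf FABP4 spanned 88.8-fold on the High plane and 36.8-fold on the Moderate plane, the lower ends of which rest on 5 and 2 reads.

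LEP was at or near the limit of detection in this muscle. Of the 10 High plane calves, 4 had a read: replicate 5 had 25 reads (1.68 scaled CPM), replicate 3 had 10 (0.723), replicate 6 had 2 (0.146) and replicate 7 had 1 (0.0845). Of the 10 Moderate plane calves, only replicate 3 had a read, and that was 1 (0.0797 scaled CPM). The 2 calves with 10 reads or more were thus both on the High plane, and they were also the 2 highest in FABP4. The groups summed to 38 LEP reads among 130612019 and 1 among 131320290. A difference in the number of calves with a read did not pass (4 against 1, Fisher's exact test, two-sided p = 0.303), nor did one in the number with at least 3 reads (2 against 0, exact p = 0.474).

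Since LEP failed the filter on low counts, it was tested in a fit to all 19739 genes with a read, in which 0.502% were called higher on the High plane. Its difference there was 0.24 on the log2(scaled CPM + 1) scale (95% interval -0.05 to 0.53), with a limma unadjusted p of 0.0998 and an adjusted p of 0.516. The value was 0.11 without High plane replicate 5, which held most of the LEP reads, and 0.56 or 0.07 with pseudocounts of 0.25 or 5. The edgeR fit gave LEP a log2 difference of 4.08 with an unadjusted p of 0.00103 and an adjusted p of 0.0653, and the adjusted p was 0.0460 without High plane replicate 2. Permuting the group labels gave p = 0.0858 (100000 resamples). A difference in LEP between the groups thus did not pass with all calves in either test. The SD of the LEP log2 level was 0.48 on the High plane and 0.03 on the Moderate plane, where it came from a single read. With a median of 0 in both groups, the permutation test of the LEP spread is the test of its level and gave the same p.

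LEP and FABP4 varied together within the High plane group, through few calves, and LEP had too few reads on the Moderate plane to show a relation. On group-centred log2 levels of the 20 calves Pearson's r was 0.75 (permutation p = 0.00165, permuted within groups) and Spearman's rho was 0.66 (permutation p = 0.00172). Within the 10 High plane calves r was 0.81 (permutation p = 0.00158). Within the 10 Moderate plane calves it was -0.05 (permutation p = 0.90), where LEP had 1 read in all. Without High plane replicates 3 and 5, the calves farthest from the median of FABP4, r was 0.45 (permutation p = 0.137), so the relation rests on those calves. In a limma fit of all genes on the level of FABP4 beside feeding group, 47 of 19738 genes with a read were higher with FABP4 (0.238%), and LEP was one of them. Its slope was 0.19 ± 0.04 log2 units per log2 unit of FABP4 (SE, adjusted p = 0.0286). That adjusted p was 0.419 without High plane replicate 5, 0.129 without High plane replicate 3 and 0.653 without both. Over all 20 calves left out in turn it ran from 0.00247 to 0.419, and LEP missed the threshold in 10 of these 20 fits.

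The converse fit, on the level of LEP beside feeding group, called 11 genes higher with LEP (0.0912% of those tested, limma adjusted p below 0.05), and FABP4 was one of them. The slope of FABP4 was 2.87 ± 0.55 log2 units per log2 unit of LEP (SE, adjusted p = 0.0394). No gene was lower with LEP (limma 0, edgeR 0), with 220 higher and 80 lower at an unadjusted p below 0.05. Of the 11 genes, 8 were also among the 15 genes that followed FABP4, described next, which are 0.124% of those tested. FABP4 is itself one of the 11 and could not be among the 15. The levels of LEP and FABP4 were correlated (r = 0.75) and both highest in High plane replicates 5 and 3. The overlap is therefore a description and no test. Without High plane replicates 3 and 5, which hold 92.1% of the LEP reads of their group, 0 genes were called in this fit.

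Few other transcripts passed the adjusted threshold for following FABP4 from calf to calf. In a limma fit on the level of FABP4 beside feeding group, limited to the 12056 other tested genes, 15 were higher with FABP4. That is 0.124% at an adjusted p below 0.05, and 0 were lower. At an unadjusted p below 0.05 there were 513 and 364. The edgeR fit called 17 (0.141%) higher and 0 lower, and 14 of the 15 were among them. Of the 15 genes, 6 had a within-group r with FABP4 above 0.90, and the next highest was 0.83. Over all other tested genes the median r was 0.02, and 95% lay between -0.48 and 0.50.

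**Figure D3:**
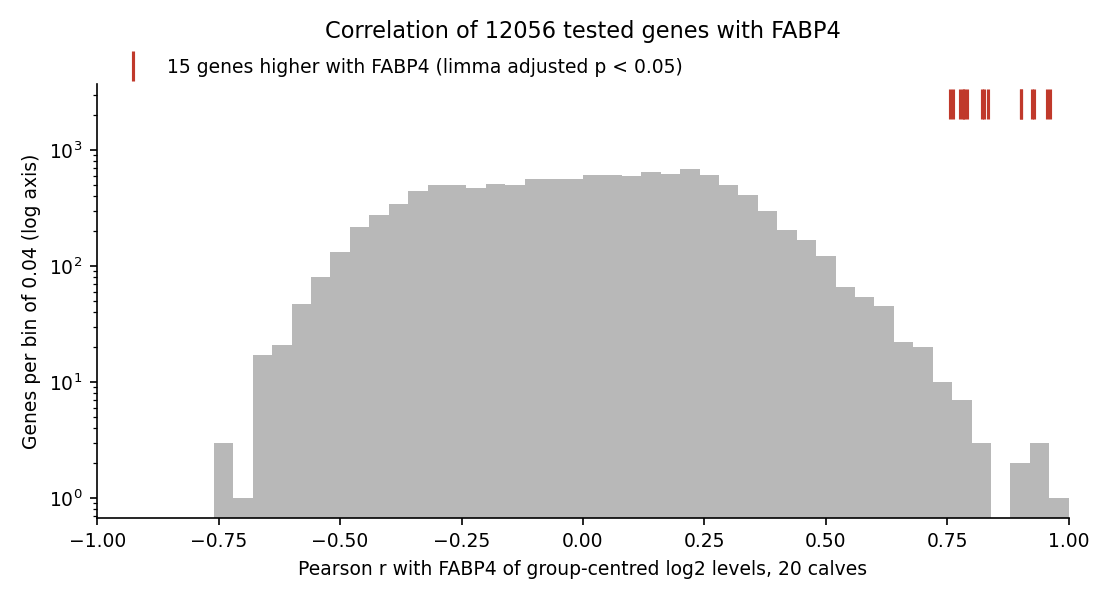
Number of genes (log axis) by their Pearson correlation with FABP4, on log2 levels centred within feeding groups over 20 calves, for the 12056 other tested genes. Red ticks mark the 15 genes called higher with FABP4; 6 of them lie above 0.90, apart from the bulk of genes.

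By the rule for genes most like FABP4, the highest r belonged to ENSBTAG00000052213 (0.96) and ENSBTAG00000007969 (also 0.96), whose symbols are not paired in the sources used here. ENSBTAG00000052213 ran from 0.444 to 36.4 scaled CPM with a median of 3.34 in the High plane calves, and from 0.0776 to 5.18 with a median of 0.438 in the Moderate plane calves. Its highest calves were High plane replicate 5 and Moderate plane replicate 7, the same calves that led their groups in FABP4. ENSBTAG00000007969 ran from 0.444 to 38.5 scaled CPM with a median of 2.81 on the High plane, and from 0 to 2.46 with a median of 0.225 on the Moderate plane. The same 2 calves led. The slopes on FABP4 were 0.85 ± 0.06 and 0.90 ± 0.06 log2 units per log2 unit (SE), with limma adjusted p-values of 7.78e-09 and 1.22e-08. Within the Moderate plane group alone, where no calf reached the FABP4 levels of High plane replicates 3, 5 and 7, r was 0.89 for ENSBTAG00000052213 and 0.86 for ENSBTAG00000007969, and without Moderate plane replicate 7, the highest calf of that group in both genes and in FABP4, r was 0.68 and 0.66 (n = 9). Reads in that group were few, with 1 to 76 per library for ENSBTAG00000052213 and 0 to 36 for ENSBTAG00000007969. The Moderate plane median of ENSBTAG00000007969 lay in the range that a gene without a read may have reached. These Moderate plane correlations thus rest partly on values near the limit of detection. The lowest r belonged to ENSBTAG00000004872 (-0.74) and ENSBTAG00000012654 (-0.73). Neither was called lower with FABP4 (limma adjusted p = 0.677 and 0.528), and both varied little, from 16.1 to 24.4 and from 19.4 to 27.8 scaled CPM over all calves.

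**Figure D4:**
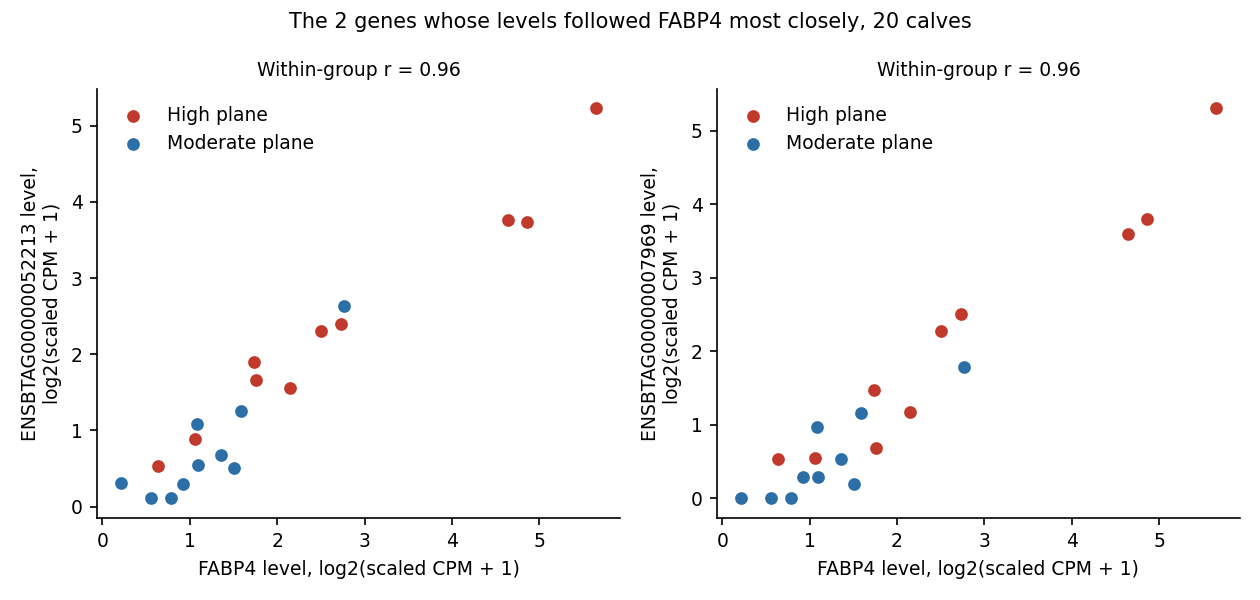
Levels of ENSBTAG00000052213 (left) and ENSBTAG00000007969 (right) against FABP4, each as log2(scaled CPM + 1), with 1 point per calf coloured by feeding group. Points of both groups rise with FABP4 in each panel, with a within-group r of 0.96, and the highest calf is High plane replicate 5.

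Both the number of genes called and the list itself changed when the calves highest in FABP4 were left out. Without High plane replicates 3 and 5, 21 genes in all were called, more than the 15 with all calves. Only 6 of the 15 were among them, and these were the 6 with r above 0.90. All 15 kept a positive slope in that fit, and 14 had an unadjusted p below 0.05. Without replicates 3, 5 and 7 of the High plane, 2 genes in all were called, both among the 6 with r above 0.90. In that fit 14 of the 15 genes kept a positive slope, and 10 of them, including all 6 with r above 0.90, had an unadjusted p below 0.05. That unadjusted threshold was also passed there by 1510 of the 12056 other tested genes in the higher direction and 1356 in the lower. With all calves these numbers were 513 and 364. With the 2 unlike libraries left out, 12 of the 15 were called. Without High plane replicate 5 alone, 6 genes in all were called, against 10 without replicate 3 alone and 17 without replicate 7 alone. In the High plane group the 15 genes had r with FABP4 of 0.82 to 0.98 (median 0.94). In the Moderate plane group r ran from 0.03 to 0.89 (median 0.60). Among the 6 closest genes r in the Moderate plane group was at least 0.52, but without Moderate plane replicate 7 it ran from -0.25 to 0.76.

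Of the 15 genes, 14 had a positive difference between the groups, with a median of 0.80 on the log2(scaled CPM + 1) scale (range -0.17 to 1.67), against a median of 0.01 over all tested genes. By limma 3 of the 15 were called between the groups, by edgeR 9, and 12 were higher at an unadjusted p below 0.05, against 8.34% of all tested genes. The list was formed on the same calves, so these counts are a description. In the fit with the level of FABP4 as a further term, limma called 78 genes between the groups, or 0.647%, and 0 of the 15 were among them. Genes chosen for a positive slope on FABP4 lose group difference in that fit by construction, so nothing is read from that count.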

How the data were processed

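Per the submitters' processing notes, FastQC 0.11.8, cutadapt 2.6, STAR 2.6.1, R 3.4, edgeR 3.5 and the genome build ARS-UCD1.2 were used; the sources used here do not give the counting tool, annotation release or strand setting. The authors deposited a normalised signal, reads divided by a TMM-scaled library size and multiplied by 1000000. All values were whole multiples of 1 read to within 0.01 of a read (100% of values), and TMM factors recomputed from the recovered reads differed from the implied ones by at most 7.51e-09.

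The design assumed this unit. Log2(scaled CPM + 1) levels were tested with limma 3.58.1 in R 4.3.3 (trend of the variance on mean level, two-sided), with Benjamini-Hochberg adjustment over all genes kept by edgeR's filterByExpr (edgeR 4.0.16, minimum count 10, smallest group of 10). Fits on the level of FABP4 or LEP added that level beside feeding group. The edgeR quasi-likelihood test, DESeq2 1.42.0 and voom were run on recovered reads. Permutation tests used 100000 resamples (scipy 1.17.1) of single values. Fits were tested on simulated data. Other settings were pseudocounts of 0.25 and 5, no filter, other scalings and leaving out calves.

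The members, gene lists and tests were chosen with earlier results of these data known. Genes named besides the members were the 2 with the highest and the 2 with the lowest within-group r with FABP4. The lists of other fat cell, muscle fibre, vessel, blood, immune and nerve genes were not analysed here, since 0 of the 27607 identifiers matched the gene table's 37063 rows. Depth intervals cover counting error only, and reads are not independent molecules. The labels give neither a batch nor replicate numbers; the number of each calf is a name given in accession order.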

Additional observations from a re-analysis of the deposited data

Results flagged for a closer look

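Each member and each of the 4 other named genes was checked in each feeding group of 10 for a calf far from the others, measured as its gap to the nearest calf against the whole range. Of 12 groups of values, 7 held such a calf; chance picks out about 1 in 20 groups of independent normal values, but these levels are skewed and share calves, so the count is no test. Moderate plane replicate 7 stood apart in FABP4 (5.80 scaled CPM, next 2.00), in ENSBTAG00000052213 (5.18, next 1.38) and in ENSBTAG00000007969 (2.46, next 1.24). High plane replicate 5 stood apart in LEP (1.68 scaled CPM, next 0.723), in ENSBTAG00000052213 (36.4, next 12.6) and in ENSBTAG00000007969 (38.5, next 12.9). In FABP4 itself High plane replicate 5 was not picked out, with 28.0 as the next value below 49.3. Moderate plane replicate 3 stood apart in LEP (0.0797 scaled CPM) because it held the 1 read of its group.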

How the results depend on the processing

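FABP4 was higher on the High plane under every setting run. With all calves its adjusted p was below 0.05 only with edgeR (2.94 on the log2 scale), DESeq2 (2.95) and the percentage of reads in the 20 top genes as limma covariate (1.71). With calves left out it was below 0.05 with edgeR without both unlike libraries (2.93) and with limma without High plane replicate 2. It was also below 0.05 in 19 of the 20 edgeR fits with 1 calf left out, all but that without High plane replicate 5. Leaving out 1 calf gave 1.27 to 1.82 in limma and 2.33 to 3.47 in edgeR. With pseudocounts of 0.25 and 5 the limma value was 1.97 and 0.94 for FABP4 and 0.56 and 0.07 for LEP. LEP had 0.11 to 0.27 in limma with 1 calf left out, and passed only in edgeR without High plane replicate 2, in a range of 2.82 to 4.92 with 1 calf left out. The spread ratio of FABP4 passed with a pseudocount of 5 (3.90), not with 0.25 (1.88), and in 6 fits with 1 calf left out (range 2.09 to 3.80). That of LEP passed in 5 (range 7.39 to 14.5), but its test is the test of its level and says nothing of spread. Without Moderate plane replicate 3 the LEP ratio has no value. The correlation of LEP with FABP4 was 0.64 to 0.84 with 1 calf left out and 0.45 without High plane replicates 3 and 5. Genes higher with FABP4 numbered 9 and 31 with pseudocounts of 0.25 and 5, 47 without the filter and 45 with library totals alone. With 1 calf left out they numbered 6 to 20, fewest without High plane replicate 5. They numbered 21 without replicates 3 and 5, and 2 without replicates 3, 5 and 7. That last setting was chosen after seeing the data. So were the edgeR fits with calves left out, the covariate and the other fits without replicates 3 and 5. Genes higher with LEP numbered 11; they numbered 4 and 18 with those pseudocounts, 84 without the filter, 6 with edgeR, 20 with library totals alone, 0 to 16 with 1 calf left out (0 without High plane replicate 5, 2 without replicate 3) and 0 without both. The count lower with LEP was 1 without both unlike libraries. The causes were not tested. No paired analysis was possible, because each calf was fed at 1 level and gave 1 library, and the labels pair no calves. The replicate numbers used here pair no calves either. ADIPOQ was not analysed here under any setting. Depth limits LEP, which had 0 to 25 reads, the low end of FABP4, and the Moderate plane levels of ENSBTAG00000052213 and ENSBTAG00000007969.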

Other observations

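With the level of FABP4 as a further term, limma called 78 genes between the feeding groups, 50 higher and 28 lower on the High plane, in place of 258 (138 and 120) with group alone. Of the 78 genes, 72 were among the 258. Of the 258 genes, 3 were among the 15 that followed FABP4 within groups. Why the number fell was not tested.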
